A study of Oryza sativa with 12 samples.

Results

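The genes described here move phosphate across plant membranes or carry the SPX domain through which cells read their phosphate status. They are the rice genes whose symbol or synonym in a RefSeq gene table equals PHT1-1, PHT1-2, PHT1-4, PHT1-8, PHO1-1, PHO1-2, PHO1-3, SPX1, SPX2 or SPX3. These 10 names led to 9 gene records, because PHT1-2 and PHT1-4 are both synonyms of the record LOC4335115, called PHT1-4 below. No probe set of PHO1-1 (LOC9270401) was used here, since the array's gene annotation pairs none with it. That leaves 8 genes with 13 probe sets, out of 17905 genes and 57381 probe sets on the array. All 8 genes passed the filter on low values with the brightest of their probe sets, and 15608 genes were tested in all.

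Leaf RNA was measured on Affymetrix rice arrays in 4 groups of 3 arrays, from plants grown outdoors in flooded plots. Bala drought and Azucena drought plants had no water for 24 days, counted from day 59 after sowing to sampling on day 83. Bala control and Azucena control plants stayed flooded over the same days. Bala and Azucena are rice cultivars, and none of the groups carries a transgene or a mutation named in the labels. Each array stands for leaves pooled from 1 of 3 field blocks, taken from 2 plots per block under drought and from 1 plot per block in control. Only the middle of the blade was used, from the leaf just older than the youngest expanded one. P-values therefore measure the spread between pooled samples of 1 field and 1 sampling time, and 3 arrays a group limit the precision.

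Plants take phosphate up as the inorganic ion. PHT1 proteins are proton-coupled transporters in the plasma membrane that bring it into cells. PHO1 proteins, which carry an SPX domain themselves, let phosphate out of cells, and in rice PHO1-2 is known for loading it into the xylem on the way from root to shoot. The small SPX proteins bind inositol pyrophosphates when phosphate is plentiful and then hold back PHR2, the transcription factor that switches on the phosphate starvation genes. Transcripts of SPX1, SPX2 and SPX3 are themselves known to accumulate in phosphate-starved rice.

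The tissue label was checked with 6 leaf markers. The 5 that passed the filter on low values were each above background in all 4 groups. On every array, 1 of the 6 was at or under background. Signal summed over all 6 ran from 20061 to 20761 in Bala drought against 25708 to 29872 in Bala control. In Azucena this sum ran from 18845 to 20976 under drought against 23876 to 28667 in control. Of the 5 that passed the filter, 4 were lower under drought in each cultivar. Over all genes, 14.1% were lower in Bala and 17.4% in Azucena. All 5 water deficit markers, led by the dehydrin RAB21, were higher under drought in both cultivars. Over all genes, 27.4% were higher in Bala and 18.2% in Azucena. Array medians ran from 9.6 to 12.4 signal units. The background of an array was taken as its brightest negative control probe set, which lay between 13.4 and 28.3.

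Under drought, PHT1-1 and PHO1-3 fell and PHT1-4, SPX1 and SPX2 rose in both cultivars. PHT1-8 fell in Azucena, and its response differed between the cultivars. In Bala, 5 of the 8 genes were called, where 41.4% of all genes were, with 3 higher (27.4% of all genes) and 2 lower (14.1%). In Azucena, 6 of the 8 were called, where 35.6% of all genes were, with 3 higher (18.2%) and 3 lower (17.4%). A call is a limma adjusted p under 0.05 on log2(signal + 16). The median log2 change of the 8 genes was -0.18 in Bala and 0.21 in Azucena, against 0.18 and 0.03 over all genes tested. With 8 genes these counts say no more than that phosphate genes moved in both directions under drought.

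**Figure D1:**
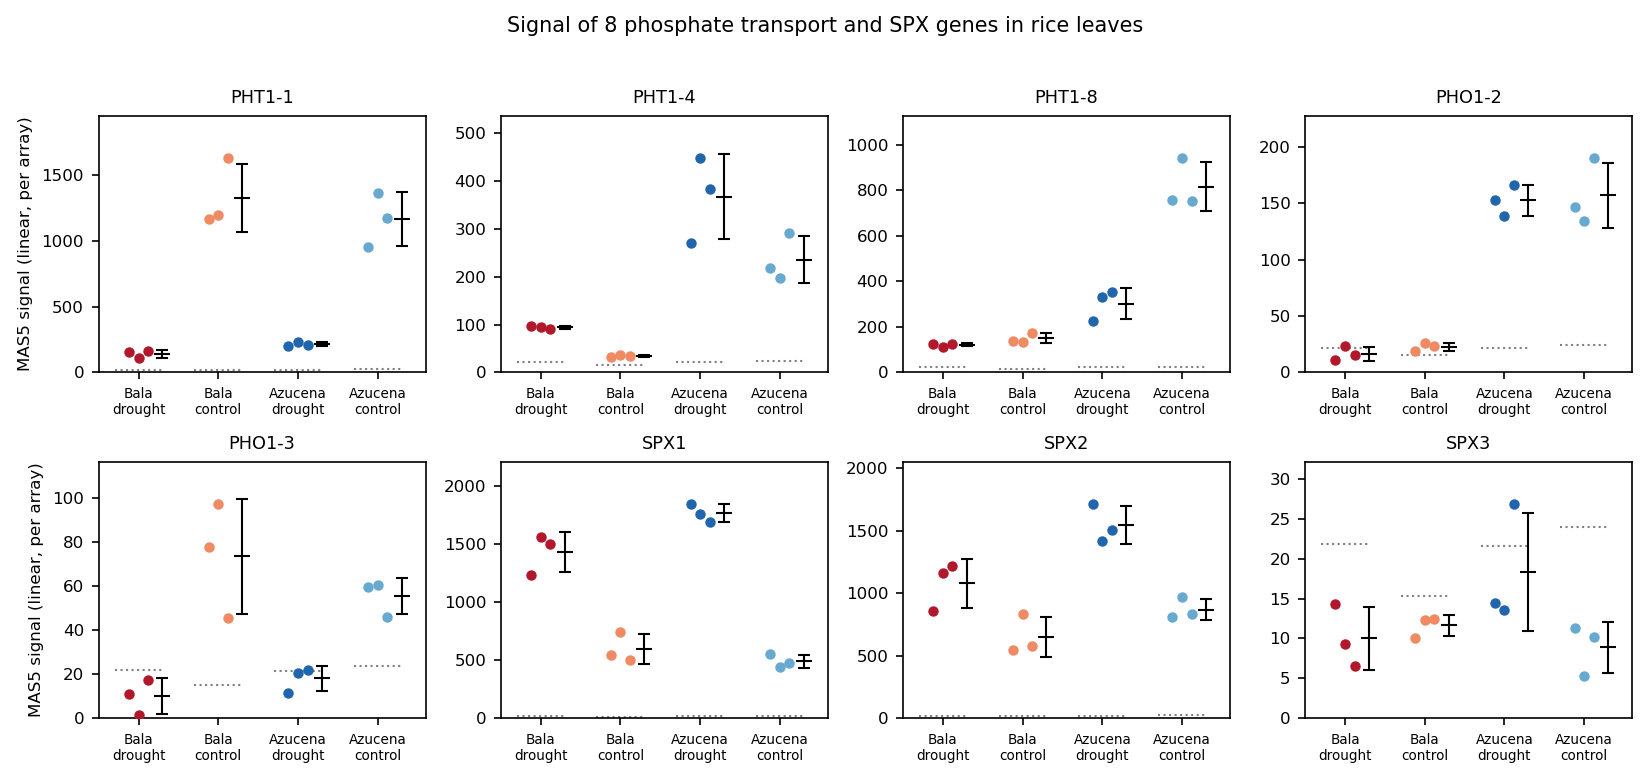
Signal per array (linear MAS5 units, vertical axes from 0, a scale of its own for each gene) of the brightest probe set of each of the 8 genes in Bala drought, Bala control, Azucena drought and Azucena control. Points are the 3 arrays of a group, bars the mean and SD, dotted lines the mean background. PHT1-1 lies between 106.4 and 228.1 in the drought arrays of both cultivars against 952.4 to 1623.2 in the control arrays, SPX1 lies higher in the drought arrays, and PHT1-4, PHT1-8 and PHO1-2 lie lower in Bala than in Azucena.

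PHT1-1 (LOC4331635) is a transporter known to be active in rice roots and shoots also when phosphate is sufficient. By the brightest probe sets, its fitted log2 drought change was the largest of the 8 genes in both cultivars. PHO1-3 fell to background under drought, so the size of its drop cannot be ranked against that of PHT1-1. The brighter PHT1-1 probe set, Os.12092.2.S1_a_at, read 154.1, 106.4 and 164.4 in Bala drought against 1160.3, 1195.8 and 1623.2 in Bala control. In Azucena the same probe set read 199.4, 228.1 and 211.3 under drought against 952.4, 1360.3 and 1170.9 in control. Every drought array lay far under every control array, and all 12 stayed above background. The log2 change was -3.09 in Bala (SE 0.18, limma adjusted p = 1.49e-09), which is 8.54-fold lower. It was -2.35 in Azucena (SE 0.18, adjusted p = 5.62e-08), or 5.10-fold lower. Fewer cells of a type in the leaf and less RNA per cell cannot be told apart in these pooled leaves, here and in all values that follow.

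Both drought groups thus stood lowest for PHT1-1, with Bala drought at 142 ± 30.9 and Azucena drought at 213 ± 14.4 (SD, n = 3 each). Control levels were 1326 ± 258 in Bala and 1161 ± 204 in Azucena (SD, n = 3 each), and these neighbours did not differ beyond their spread (log2 difference 0.19, adjusted p = 0.504, 95% interval -0.20 to 0.57). Under drought Bala was 1.47-fold lower than Azucena (log2 -0.56, adjusted p = 0.0355). This call was lost without Azucena drought replicate 1, 2 or 3 (adjusted p = 0.053, 0.113 and 0.079) or without Bala drought replicate 2 (adjusted p = 0.201), and in 5 of 11 other settings (adjusted p up to 0.837). The drop in Bala was deeper than in Azucena by 0.74 on the log2 scale (interaction -0.74, 95% interval -1.29 to -0.20, adjusted p = 0.0748). That difference missed the threshold on the deposited scale, and passed it after quantile normalization (adjusted p = 0.032) and median centring (adjusted p = 0.029).

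The other PHT1-1 probe set, Os.12092.1.S1_at, was dim and ran the opposite way. It read 32.4, 27.4 and 11.6 in Bala drought against 1.1, 1.1 and 0.7 in Bala control, and 6.5, 13.1 and 20.3 in Azucena drought against 3.2, 2.0 and 1.8 in Azucena control. Only 2 of these 12 values, both from Bala drought, were above background. In Bala it was at least 1.44-fold higher under drought (adjusted p = 5.2e-04). In Azucena it was also called higher (log2 0.65, adjusted p = 0.0377), but both groups were at background, so no fold is given. The drop of PHT1-1 therefore rests on the brighter probe set: the mean of both gave log2 changes of -0.95 in Bala and -0.85 in Azucena.

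PHT1-4 (LOC4335115), a transporter known in rice for uptake and movement of phosphate to the shoot, went the other way from PHT1-1. Its single probe set, Os.13467.1.S1_x_at, read 96.8, 95.6 and 89.7 in Bala drought against 32.1, 37.3 and 34.0 in Bala control. The Azucena values were 270.6, 446.9 and 383.5 under drought against 219.1, 196.9 and 290.2 in control. The Bala arrays separated fully by condition, while the Azucena arrays overlapped, since Azucena drought replicate 1 lay under Azucena control replicate 3. PHT1-4 was 2.18-fold higher under drought in Bala (log2 1.13, SE 0.19, adjusted p = 1.81e-04). In Azucena it was 1.51-fold higher (log2 0.60, SE 0.19, adjusted p = 0.0246). The Azucena call was lost without Azucena drought replicate 2 or 3 (adjusted p = 0.133 and 0.0796) or without Azucena control replicate 1 or 2 (adjusted p = 0.071 and 0.109). It was also lost when only the groups compared were fitted (adjusted p = 0.052). The 2 responses differed by 0.53 on the log2 scale (95% interval -0.03 to 1.09), which missed the threshold (adjusted p = 0.231).

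PHT1-4 also separated the cultivars. Bala drought averaged 94.0 ± 3.8 against 367 ± 89.3 in Azucena drought, and Bala control 34.5 ± 2.6 against 235 ± 48.7 in Azucena control (SD, n = 3 each). All 6 Bala arrays thus lay under all 6 Azucena arrays, with Bala control lowest and Azucena drought highest. Bala was 3.42-fold lower under drought (log2 -1.77, adjusted p = 1.45e-06) and 4.93-fold lower in control (log2 -2.30, adjusted p = 5.02e-08). The ending _x_at marks probe sets whose probes may also match other sequences.

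PHT1-8 (LOC4348741) is a high-affinity transporter known in rice for uptake and for moving phosphate between organs. Its brightest probe set, Os.46160.2.S1_x_at, read 125.4, 113.2 and 126.2 in Bala drought against 140.0, 135.0 and 174.8 in Bala control. Azucena leaves gave 223.8, 330.4 and 353.0 under drought against 758.1, 940.0 and 752.2 in control. Neither cultivar's drought arrays overlapped its control arrays, but the gap was wide in Azucena and narrow in Bala. The log2 change of PHT1-8 in Bala was -0.26 (95% interval -0.64 to 0.11, adjusted p = 0.288), past the threshold only after quantile normalization (adjusted p = 0.048) and median centring (adjusted p = 0.039). In Azucena PHT1-8 was 2.65-fold lower under drought (log2 -1.40, SE 0.18, adjusted p = 1.24e-05).

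By the brightest probe sets on the deposited scale, PHT1-8 was the only 1 of the 8 genes called for a drought response that differed between cultivars. Over all genes 14.9% were called, and 9.82% in the same direction. The Bala response of PHT1-8 was less negative than that of Azucena by 1.14 on the log2 scale (interaction 1.14, SE 0.25, 95% interval 0.61 to 1.67, adjusted p = 0.00658). This difference passed the threshold without each of the 12 arrays in turn (adjusted p 0.0058 to 0.023) and in all 10 other alternatives (adjusted p 0.0012 to 0.015). Summed over 6 vascular and secondary wall markers, signal ran from 457.3 to 655.4 in Bala drought against 115.9 to 171.5 in Bala control. In Azucena the sum ran from 385.8 to 433.6 under drought against 250.5 to 434.0 in control. Of the 5 markers that passed the filter, 5 were called higher under drought in Bala and 0 were called in Azucena. Over all genes, 27.4% were called higher in Bala, and 35.6% were called either way in Azucena. The responses of 4 of these markers differed between the cultivars. CESA4, CESA7, CESA9 and BC1 of this list were at background in Bala control. Their part in the PHT1-8 difference was not tested.

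The other 2 probe sets of PHT1-8 gave the same direction. Os.46160.2.S1_at read 97.6, 100.1 and 87.9 in Bala drought against 117.2, 144.2 and 164.1 in Bala control, and 204.2, 250.1 and 258.3 in Azucena drought against 520.9, 692.5 and 626.4 in Azucena control. Its interaction was 0.81 (adjusted p = 0.0317), and the call was lost without any 1 of 6 arrays, with adjusted p up to 0.089, and with 1 in place of 16 added (adjusted p = 0.055). In Bala it was 1.41-fold lower under drought (adjusted p = 0.0291), a call lost without any 1 of 5 Bala arrays (adjusted p up to 0.107) and when only the groups compared were fitted (adjusted p = 0.0609).

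Os.46160.1.S1_at read 0.9, 0.3 and 4.4 in Bala drought against 0.5, 2.3 and 2.6 in Bala control, all at background. For Azucena the values were 10.7, 17.1 and 25.3 under drought against 115.4, 137.6 and 133.5 in control. Azucena control was the sole group clearly above background for this probe set. PHT1-8 was at least 5.62-fold lower under drought in Azucena by this probe set (adjusted p = 2.6e-07). Its interaction of 2.12 (adjusted p = 7.8e-05) sets an Azucena change against a Bala pair with no measured level.

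Levels of PHT1-8 differed by cultivar as well. Bala drought averaged 122 ± 7.3 against 302 ± 69.0 in Azucena drought, and Bala control 150 ± 21.7 against 817 ± 107 in Azucena control (SD, n = 3 each). The group means ran upward through Bala drought, Bala control, Azucena drought and Azucena control. No arrays of these neighbours overlapped, though both Bala groups did not differ past the threshold. Bala was 2.28-fold lower under drought (log2 -1.19, adjusted p = 7.08e-05) and 5.02-fold lower in control (log2 -2.33, adjusted p = 2.08e-08). In all Bala against Azucena comparisons, a lower transcript level and a sequence difference under the probes cannot be told apart with these arrays. The same limit applies to the smaller PHT1-8 drought response in Bala, where the signal was lower.

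**Figure D2:**
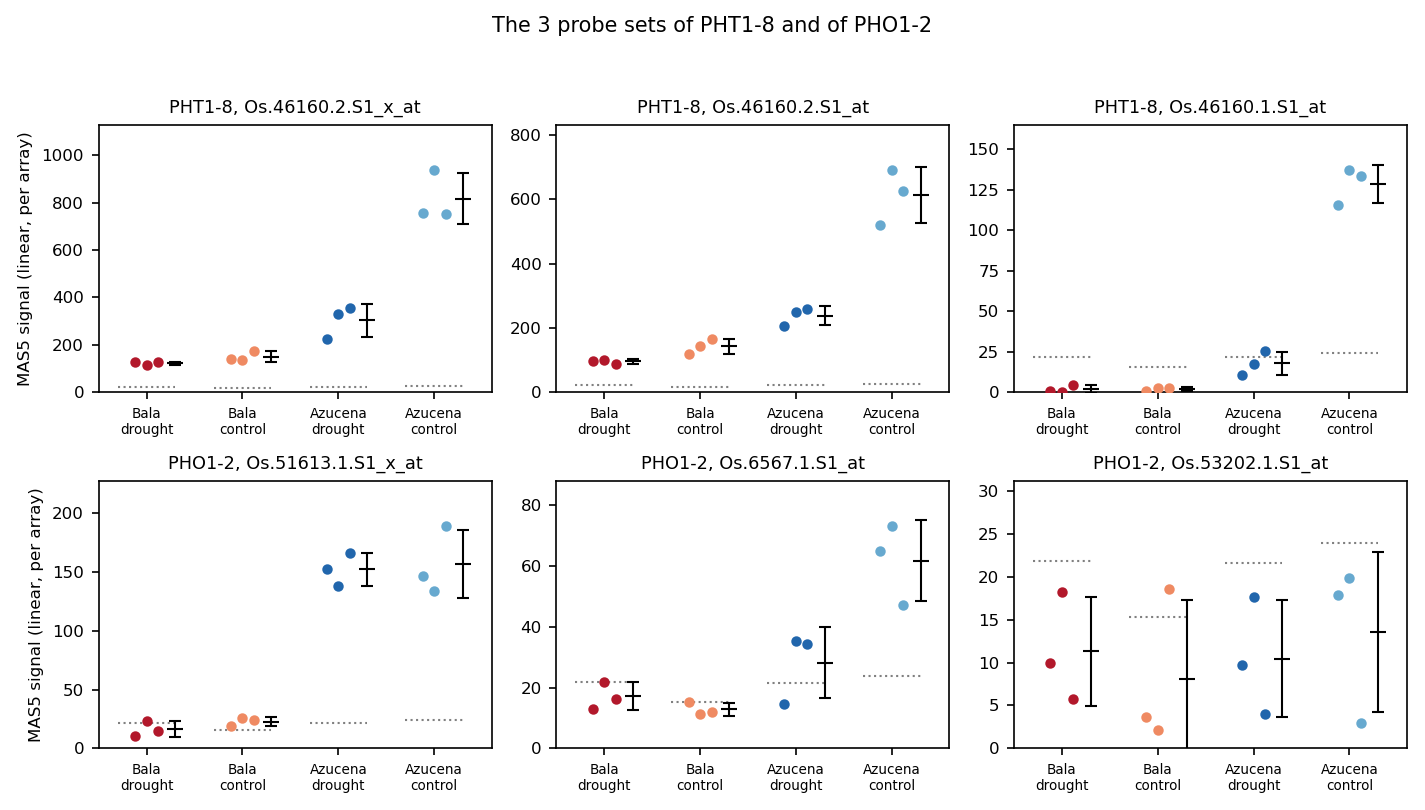
Signal per array (linear MAS5 units, axes from 0, a scale of its own for each panel) of the 3 probe sets of PHT1-8, top, and of PHO1-2, bottom, in Bala drought, Bala control, Azucena drought and Azucena control. Points are arrays, bars the mean and SD, dotted lines the mean background, and an SD bar that would pass 0 is cut there. All 3 PHT1-8 probe sets are highest in Azucena control, and the first 2 PHO1-2 probe sets are lower in Bala control than in Azucena control, while Os.53202.1.S1_at is at background in every group.

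PHO1-2 (LOC4331090), the exporter known for xylem loading and, later in development, for phosphate distribution to the grain, differed by cultivar, while a drought change was called by a dimmer probe set and not by the brightest. Its brightest probe set, Os.51613.1.S1_x_at, read 10.6, 23.5 and 15.0 in Bala drought against 18.7, 25.7 and 23.8 in Bala control. Azucena arrays gave 152.3, 138.4 and 166.3 under drought against 146.4, 134.3 and 189.5 in control. Drought and control arrays overlapped in both cultivars, whereas every Bala array lay far under every Azucena array. By this probe set the drought response was -0.27 in Bala on the log2 scale (95% interval -0.67 to 0.12, adjusted p = 0.293) and -0.03 in Azucena (95% interval -0.42 to 0.36, adjusted p = 0.938). Bala drought was at background, which makes it at least 6.98-fold lower than Azucena drought (adjusted p = 2.79e-08). In control Bala was 4.43-fold lower (log2 -2.15, adjusted p = 1.06e-07). The bound is on signal and the control fold on signal + 16, so their sizes cannot be set against each other. Both differences were smaller with the mean of the gene's probe sets, at -0.91 under drought (adjusted p = 0.00132) and -1.29 in control (adjusted p = 3.97e-05) on the log2 scale of signal + 16.

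A second PHO1-2 probe set, Os.6567.1.S1_at, gave another drought picture. It read 13.0, 22.0 and 16.4 in Bala drought against 15.4, 11.4 and 11.8 in Bala control, both at background. In Azucena it read 14.7, 35.5 and 34.4 under drought against 65.0, 73.3 and 47.1 in control, with no overlap. By this probe set PHO1-2 was 1.79-fold lower under drought in Azucena (log2 -0.84, adjusted p = 0.00729), and the interaction was 1.03 (adjusted p = 0.0364). That interaction passed the threshold in 4 of the 12 fits that each left out 1 array and in 6 of 9 other settings. In control, Bala was at least 3.84-fold lower than Azucena (adjusted p = 7.2e-05), in the same direction as the brighter probe set. Under drought the cultivar difference by Os.6567.1.S1_at was not called (log2 -0.39, adjusted p = 0.233), and the arrays overlapped. The third, Os.53202.1.S1_at, ranged from 2.1 to 19.9 and was at background in all 4 groups. In rice an antisense transcript is known at the PHO1-2 locus, and which strand each probe set reads is not known here.

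PHO1-3 (LOC4341088), a relative of PHO1-2, fell under drought in both cultivars. Its probe set, Os.52435.1.S1_at, read 11.1, 1.6 and 17.6 in Bala drought against 78.0, 97.2 and 45.7 in Bala control. Azucena leaves gave 11.7, 20.8 and 22.0 under drought against 59.7, 60.8 and 46.0 in control. All 6 control arrays were above background and lay above all 6 drought arrays, and both drought groups were at background. PHO1-3 was therefore at least 3.23-fold lower under drought in Bala (adjusted p = 3.65e-05) and at least 2.53-fold lower in Azucena (adjusted p = 0.00402). The fitted log2 changes, -1.79 and -1.07, are no bounds and depend on the added constant: in Bala the change was -3.09 with 1 added and -0.88 with 64 added.

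The cultivars did not differ past the threshold in PHO1-3. Their control groups averaged 73.6 ± 26.0 in Bala and 55.5 ± 8.2 in Azucena (SD, n = 3 each, log2 difference 0.29, 95% interval -0.25 to 0.82, adjusted p = 0.449). The responses differed by -0.71 on the log2 scale (95% interval -1.47 to 0.04, adjusted p = 0.232).

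SPX1 (LOC4341465), which in rice holds back PHR2 when phosphate is plentiful, showed the strongest drought rise of the 8 genes. Its probe set, Os.11840.1.S1_at, read 1235.3, 1560.2 and 1499.4 in Bala drought against 544.9, 744.4 and 501.0 in Bala control. In Azucena it read 1839.4, 1759.4 and 1685.3 under drought against 551.7, 442.8 and 477.3 in control. All 6 drought arrays lay above all 6 control arrays. SPX1 was 2.38-fold higher under drought in Bala (log2 1.25, SE 0.16, adjusted p = 9.02e-06) and 3.52-fold higher in Azucena (log2 1.82, SE 0.16, adjusted p = 1.66e-07). Both calls held in every alternative run. In settings other than leaving out 1 array, the Bala log2 change reached 1.42 for PHT1-4 and 1.33 for SPX1. The rank of SPX1 in Bala thus depends on the setting.

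The SPX1 rise was smaller in Bala than in Azucena by 0.56 on the log2 scale (interaction -0.56, 95% interval -1.03 to -0.10). This missed the threshold (adjusted p = 0.116) in all alternatives except median centring (adjusted p = 0.033). Drought levels averaged 1432 ± 173 in Bala and 1761 ± 77.1 in Azucena, and control levels 597 ± 130 in Bala and 491 ± 55.7 in Azucena (SD, n = 3 each). Neither pair of cultivars differed past the threshold, with log2 differences of -0.30 under drought (adjusted p = 0.190) and 0.26 in control (adjusted p = 0.243, and 0.019 after median centring).

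SPX2 (LOC4328654), which acts on PHR2 alongside SPX1 in rice, rose by a smaller factor. Its probe set, Os.15304.1.A1_at, read 855.6, 1162.0 and 1217.5 in Bala drought against 544.7, 834.9 and 575.8 in Bala control. The Azucena values were 1709.1, 1413.9 and 1503.4 under drought against 806.2, 966.5 and 833.1 in control. Drought arrays stood above control arrays within each cultivar, narrowly in Bala, where drought replicate 1 was just above control replicate 2. SPX2 was 1.65-fold higher under drought in Bala (log2 0.72, SE 0.17, adjusted p = 0.00381) and 1.76-fold higher in Azucena (log2 0.82, SE 0.17, adjusted p = 0.00175). The difference between the responses was -0.09 (95% interval -0.61 to 0.42, adjusted p = 0.864).

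For SPX2 the group means ran from Bala control, 652 ± 159, through Azucena control, 869 ± 85.8, and Bala drought, 1078 ± 195, to Azucena drought, 1542 ± 151 (SD, n = 3 each). The arrays of Bala control overlapped those of Azucena control, which in turn overlapped those of Bala drought. Under drought Bala was 1.44-fold lower than Azucena (log2 -0.52, adjusted p = 0.0371). This call was lost without Azucena drought replicate 1, 2 or 3 (adjusted p = 0.129, 0.053 and 0.076) and without Bala drought replicate 1 or 2 (adjusted p = 0.190 and 0.057). It was also lost without the filter on low values (adjusted p = 0.076) and without the mean-variance trend (adjusted p = 0.063). In control the log2 difference was -0.43 (adjusted p = 0.0759), which passed without Bala control replicate 2 (-0.61, adjusted p = 0.012).

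SPX3 (LOC4348535), the SPX gene known for a strong rise in phosphate-starved rice, was at background in all 4 groups. Its probe set, Os.46838.1.S1_at, read 14.3, 9.3 and 6.5 in Bala drought against 10.1, 12.3 and 12.5 in Bala control. For Azucena the values were 14.5, 13.6 and 26.8 under drought against 11.3, 5.3 and 10.2 in control. Only 1 of the 12 arrays, Azucena drought replicate 3, was above its background, so no fold is given and no difference was detectable at this signal.

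**Figure D3:**
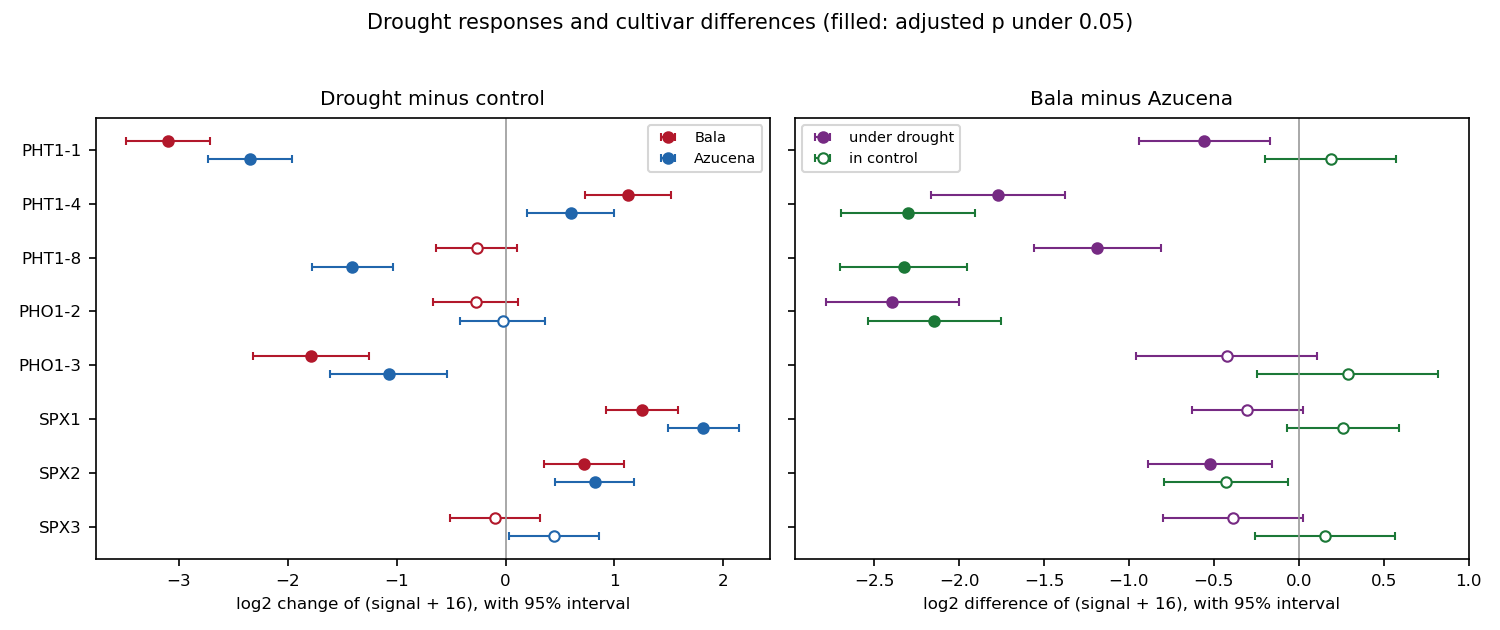
Log2 differences of (signal + 16) with 95% intervals for the brightest probe set of each gene. The left panel gives drought minus control in Bala (upper point) and Azucena (lower point), the right panel Bala minus Azucena under drought (upper point) and in control (lower point), and filled points have an adjusted p under 0.05. PHT1-1 lies farthest left in the left panel at -3.09 and -2.35, SPX1 farthest right at 1.25 and 1.82, and PHT1-4, PHT1-8 and PHO1-2 lie below -1 in both conditions in the right panel.

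Between the cultivars, every called difference among the 8 genes was lower in Bala. Under drought 5 of 8 were called, all lower, where 25.7% of all genes were called and 13.7% were lower. In control 3 of 8 were called, all lower, where 33.4% were called and 22.7% were lower. By their brightest probe sets, PHT1-4, PHT1-8 and PHO1-2 were lower in Bala in both conditions. For PHO1-2 under drought, the dimmer Os.6567.1.S1_at did not call a difference (adjusted p = 0.233). PHT1-1 and SPX2 were called under drought alone, on the fragile values given above. The median log2 difference of the 8 genes was -0.54 under drought and -0.14 in control, against 0.03 and -0.11 over all genes. These comparisons share their arrays with the drought responses, so the 2 kinds of value are not independent.

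Averaged over both cultivars, the drought response was called for 6 of the 8 genes, where 50.1% of all genes were. PHT1-4, SPX1 and SPX2 were higher (30.7% of all genes) and PHT1-1, PHT1-8 and PHO1-3 lower (19.4%). Arrays did not overlap between drought and control for 6 of 8 genes in Bala, where this held for 51.7% of all genes. The count was also 6 in Azucena, where it held for 51.4%, but 1 of these 6 was SPX3, which was at background on both sides. Between cultivars the arrays did not overlap for 6 of 8 genes under drought and 3 of 8 in control, where the shares over all genes were 43.9% and 43.5%.

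Leaf ageing and root markers were also compared between drought and control. Leaf senescence and chlorophyll breakdown markers, summed over 4 genes, ran from 2684 to 3906 in Bala drought against 1558 to 2190 in Bala control, and from 3424 to 7154 in Azucena drought against 1740 to 2484 in Azucena control. All 4 were higher under drought in Azucena, and 2 of 4 in Bala. Over all genes, 18.2% were higher and 17.4% lower in Azucena, and 27.4% higher and 14.1% lower in Bala. Root markers, summed over 4 genes, ran from 213.3 to 322.0 in Bala drought against 425.9 to 571.4 in Bala control. In Azucena the sum ran from 402.9 to 447.6 under drought against 734.4 to 1095 in control. On each array 1 or 2 of these 4 genes were at or under background. Of the 3 root markers that passed the filter, 1 was lower and 0 higher under drought in Bala. In Azucena 1 was lower and 1 higher, while NRAMP5 was at background throughout. The lower root marker was LSI6, a silicon transporter also known from rice leaves. The part of these markers in the responses of the PHT1, PHO1 and SPX genes was not tested.

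Other genes of phosphate uptake, signalling and recycling were taken from a list of 58 names. Of these, 25 names matched 26 genes, 17 of them had a probe set and 13 passed the filter. Under drought 5 were higher and 1 lower of 13 in Bala, where 27.4% of all genes were higher and 14.1% lower. In Azucena 5 were higher and 0 lower, where 18.2% of all genes were higher and 17.4% lower. The names VPE1, PAP2 and ARF16 are also used for proteins outside phosphate biology. Without them, a choice made after the data were seen, 2 of 9 were higher and 1 lower in Bala, and 2 of 9 higher and 0 lower in Azucena, so the higher counts were near the shares over all genes. The median log2 change of these 9 genes was 0.06 in Bala and 0.23 in Azucena.

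SPX4, which in rice keeps PHR2 in the cytosol and is broken down when phosphate is scarce, responded differently in the 2 cultivars. It read 288.8, 271.4 and 255.8 in Bala drought against 306.5, 314.0 and 473.1 in Bala control. In Azucena it read 480.8, 414.7 and 457.5 under drought against 260.5, 242.8 and 239.3 in control. Drought arrays lay under control arrays in Bala and above them in Azucena. The log2 change of SPX4 in Bala was -0.38 (adjusted p = 0.0922), and in Azucena it was 1.77-fold higher under drought (log2 0.82, adjusted p = 0.00103). The Bala change passed the threshold after quantile normalization (adjusted p = 0.009), after median centring (adjusted p = 0.012) and without Bala control replicate 1 (adjusted p = 0.044). The interaction was -1.20 (SE 0.23, 95% interval -1.69 to -0.71, adjusted p = 0.0027) and passed the threshold in all 21 alternatives. Of the 4 small SPX genes tested, SPX1 and SPX2 thus rose in both cultivars, SPX3 was not above background and SPX4 differed by cultivar.

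PHR1, a transcription factor related to PHR2, was 1.55-fold higher under drought in Bala (log2 0.63, adjusted p = 0.00198), and its log2 change in Azucena was 0.02 (adjusted p = 0.946). The difference between these responses missed the threshold (interaction 0.61, adjusted p = 0.0524), and passed it in 7 other settings, scaling and filters among them (adjusted p 0.0273 to 0.0486). PHR2, the factor that SPX1 and SPX2 hold back, had log2 changes of 0.06 in Bala (adjusted p = 0.824) and 0.23 in Azucena (adjusted p = 0.325). PHR3 read 532.5, 598.4 and 571.0 in Bala drought against 657.9, 850.6 and 785.9 in Bala control, and 754.5, 1114.9 and 989.7 in Azucena drought against 764.4, 747.2 and 665.2 in Azucena control. Its log2 change was -0.41 in Bala (adjusted p = 0.0498, a call held in 3 of 12 fits without 1 array and lost in 5 other settings) and 0.37 in Azucena (adjusted p = 0.0872). The Azucena change passed after quantile normalization (adjusted p = 0.0415), median centring (adjusted p = 0.0363) and spike-in centring (adjusted p = 0.0154), and without Azucena drought replicate 1 (adjusted p = 0.0225). The PHR3 interaction was -0.78 (adjusted p = 0.0269) and held in 6 of those 12 fits.

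Among lipid enzymes that make galactolipids, which can stand in for phospholipids, MGD1 was 1.66-fold higher under drought in Bala (log2 0.73, adjusted p = 0.00437). In Azucena MGD1 had a log2 change of 0.28 (adjusted p = 0.270), and the responses did not differ past the threshold (interaction 0.44, adjusted p = 0.296). MGD2 was dim, and its Azucena control group was at background. It had a log2 change of 0.61 in Azucena (adjusted p = 0.0255), for which no fold is given, and the call was lost without any 1 of 4 arrays (adjusted p up to 0.115) and with 1 in place of 16 added (adjusted p = 0.0699).

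**Figure D4:**
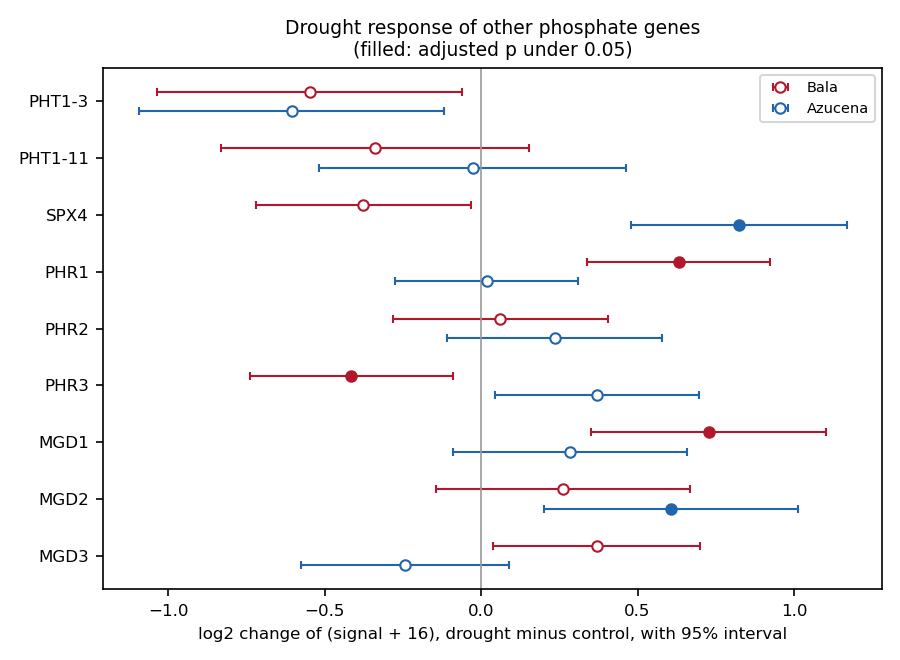
Log2 change of (signal + 16), drought minus control, with 95% intervals, for 9 other phosphate genes in Bala (upper point) and Azucena (lower point); filled points have an adjusted p under 0.05. SPX4 and PHR3 lie on opposite sides of 0 in the 2 cultivars, at -0.38 and 0.82 for SPX4 and at -0.41 and 0.37 for PHR3.

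The named genes whose patterns over the 12 arrays lay closest to each member were found among 2153 candidates, as the root-mean-square difference of log2 values centred on each gene's mean. Closest to PHT1-1 was Cht6, a chitinase gene (0.25), and closest to PHT1-4 was SWEET4, a sugar transporter gene (0.33). PHT1-8 lay closest to UGD3, a UDP-glucose dehydrogenase gene (0.30), PHO1-2 to CML1, a calmodulin-like gene (0.32), and PHO1-3 to EIL1, named for the ethylene response (0.25). SPX1 lay closest to ARF14, an auxin response factor gene (0.25), and SPX2 to wsl3 (0.16). SPX3, at background, was left out. These distances describe the 12 arrays, which share 4 groups, and carry no test.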

How the data were processed

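RNA of 12 rice leaf samples, 4 groups of 3, was measured on Affymetrix arrays. The authors' deposited values are linear signal intensities per probe set and array, made with MAS5 per the submitters' processing notes. The sources used here do not give how they were scaled, by which software release, or any present and absent calls. Probes were named through the platform's gene annotation and updated by gene ID through RefSeq. A single gene was named for 22436 of the 57381 probe sets and several genes for 95, with 34850 absent from the annotation.

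Values were used as log2(signal + 16), so folds understate changes of dim probe sets. The test covered 33476 probe sets, each exceeding the median of its array on 3 or more of the 12 arrays, and no control probe sets (123). limma 3.58.1 in R 4.3.3 (lmFit, eBayes with trend) fitted 4 group means over all 12 arrays, with Benjamini-Hochberg adjustment over all probe sets tested. The code was tested on simulated data. Python 3.11.15 with matplotlib 3.10.9 and pandas 2.3.3 drew the plots, and the data.table package (1.17.8) read the files.

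A gene is represented by its brightest probe set. A group is at background where all its arrays are at or under their brightest of 33 negative controls, or its mean is at or under theirs; folds are then lower bounds on signal without the added constant, bright group's mean log2 signal minus the dim group's mean of the higher of background and signal. All members were named, with up to 4 listed phosphate genes called each way per drought response, those with ambiguous names as counts only, and the nearest named gene by pattern. Members and lists were chosen with earlier results of these data known.

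The groups share replicate numbers, but no label ties a number to a field block, and no block was used. Alternatives changed the added constant, scaling, filter, trend, samples fitted, probe set rule, background, replicate block and each array left out.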

Additional observations from a re-analysis of the deposited data

Results flagged for a closer look

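Drought responses that differed between Bala and Azucena by the interaction test are gathered here. PHT1-8 was called by all 3 of its probe sets. Of these, Os.46160.2.S1_x_at and Os.46160.2.S1_at share 46160.2 in their names and may not be independent. On the log2 scale the Bala response exceeded the Azucena response by 1.14 for Os.46160.2.S1_x_at (adjusted p = 0.00658). It did so by 0.81 for Os.46160.2.S1_at (adjusted p = 0.0317) and by 2.12 for Os.46160.1.S1_at (adjusted p = 7.8e-05). For Os.46160.1.S1_at both Bala groups were at background. The call for Os.46160.2.S1_at was lost in several fits without 1 array (adjusted p up to 0.089), as were the PHO1-2 and PHR3 calls that follow. PHO1-2 differed by 1.03 through Os.6567.1.S1_at alone (adjusted p = 0.0364), while its brightest probe set gave -0.25 (adjusted p = 0.622). For SPX4 the difference was -1.20 (adjusted p = 0.0027), with log2 responses of -0.38 in Bala and 0.82 in Azucena. For PHR3 it was -0.78 (adjusted p = 0.0269), with -0.41 in Bala and 0.37 in Azucena.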

How the results depend on the processing

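Among the 8 genes, the count called for the interaction was 1 and became 2 after quantile normalization and 3 after median centring. The count for the cultivar difference under drought was 5 and became 3 without the filter on low values and 3 without the mean-variance trend. With 1 array left out, the counts of members ranged from 5 to 5 for drought in Bala, 5 to 6 in Azucena, 6 to 6 averaged, 1 to 1 for the interaction, 3 to 5 for cultivars under drought and 3 to 4 in control. Over all probe sets those ranges were 7998 to 10602, 7321 to 9713, 11585 to 13124, 2600 to 3900, 5853 to 8026 and 7738 to 9587. The cultivar difference under drought was called for 5012 probe sets with the filter in all 12 arrays, against 7684. With the median of the negative controls as background, 3 group and probe set pairs were at background, against 19.

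Scaling moved the median log2 drought change of all probe sets in Bala from 0.13 to -0.05 under median centring and to 0.21 under spike-in centring, and the share of higher calls from 65.4% to 46.0% and 73.4%, with 50.6% after quantile normalization. In Azucena that share was 51.8%, and 64.5% with spike-in centring. The share for the average was 61.1%, and 51.1%, 47.0% and 71.4% under quantile, median and spike-in scaling; for the interaction 64.2%, and 50.6% and 47.2% under the first 2; for cultivars under drought 47.1%, and 58.6% under median centring; in control 34.8%, and 52.2% and 60.8%.

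Near-zero values turned sign: PHO1-2 in Azucena gave 0.066 with spike-in centring and -0.12 to 0.10 with 1 array left out, and with the mean of its probe sets 0.045 in Bala and 0.38 for the interaction. PHR1 in Azucena gave -0.031 and -0.021 under quantile and median scaling and -0.043 to 0.075 with 1 array left out. The SPX2 interaction ran from -0.21 to 0.093 with 1 array left out. The cause was not tested. Dim probe sets depend on the added constant: PHT1-4 in Bala gave 0.68 with 64 added, and PHO1-2 between cultivars -1.43 under drought and -1.34 in control.

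Deviations from the group means correlated between same-numbered arrays with r from -0.11 to 0.218 (18 pairs, median 0.0038). Both same-numbered pairs over 0.1 joined Bala drought to Azucena drought, at 0.167 for replicate 1 and 0.218 for replicate 3. Replicate 2 gave 0.0034, and drought arrays of different numbers gave -0.196 to 0.042. Of 36 pairs with different numbers, 1 was over 0.1, Azucena control 1 with Bala control 2 (0.108). Not every same-numbered pair thus correlated over 0.1. With the replicate number as a block, the counts of members called were 5 in Bala, 6 in Azucena, 6 averaged, 1 for the interaction, 5 and 3 between cultivars, as without it; over all probe sets the block gave 10790, 9440, 13420, 4039, 7851 and 9800. Of the named genes, the block added the PHR1 interaction alone (0.61, adjusted p = 0.039, against 0.0524).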

Other observations

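The gene record LOC4331637 carries the synonym OsPht1;2 but not the spelling PHT1-2, so it is not among the 8 genes. It lies next but one to PHT1-1 in the RefSeq annotation. Its probe set, Os.5086.1.S1_at, read 0.9, 5.5 and 1.2 in Bala drought against 3.6, 10.9 and 4.6 in Bala control, and 1.4, 1.2 and 1.6 in Azucena drought against 9.2, 8.6 and 4.5 in Azucena control. All 12 values were under background, so no difference was detectable.

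PHT1-3 neighbours PHT1-8. It read 8.3, 2.6 and 4.1 in Bala drought against 4.8, 18.4 and 23.7 in Bala control, and 14.5, 20.3 and 12.9 in Azucena drought against 30.5, 25.5 and 42.4 in Azucena control. Both drought groups were at background, and neither drought response of PHT1-3 was called (adjusted p = 0.0834 in Bala and 0.0623 in Azucena). PHT1-12, the neighbour of PHT1-1, and PHT1-6, PHT1-7 and SPX5 had probe sets that did not pass the filter.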
